A study of Mus musculus with 12 samples.

Results

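The genes described here are 50 genes of chromosomal DNA replication, chosen by name from the 55421 genes of the deposited count table: 9 of origin recognition and licensing, 6 of the replicative helicase, 6 of helicase activation, 8 of the polymerases and primase, 6 of the sliding clamp and its loader, 5 of Okazaki fragment processing and single-stranded DNA binding, 5 of nucleotide supply and 5 of chromatin assembly, histone mRNA and the fork checkpoint. All 50 were found by symbol, each on 1 row, and all 50 passed the filter on low counts, as did 18108 genes in all.

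A cell copies its genome once per division. The origin recognition complex, with Cdc6 and Cdt1, loads the ring of Mcm2 to Mcm7 onto DNA in G1, and Cdc45 and the GINS complex then turn that ring into a moving helicase when S phase starts. Behind it, primase and the polymerases copy the strands, the clamp Pcna keeps the polymerases on their template, and ribonucleotide reductase and thymidylate synthase supply the building blocks. Transcripts of most of these genes are known to be made mainly around the G1/S boundary, and E2F factors bind the promoters of many of them.

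MOC2 is a mouse squamous carcinoma cell line, here grown in culture. The study asked how vesicles released by senescent cells act on tumours. It used 2 MOC2 derivatives: MOC2-25, labelled EV-proficient (able to release extracellular vesicles), and MOC2-27, labelled EV-deficient. Each received DMSO, the solvent control, or 600 nM paclitaxel, a drug that stabilizes microtubules, for 48 hours to induce senescence, and each of the 4 groups holds 3 libraries of polyadenylated RNA. Each EV label is 1 derivative line, so EV status and any other difference between those lines cannot be told apart. The labels do not name the gene through which vesicle release was blocked, nor say whether replicates were separate cultures, so p-values measure the spread between these libraries, which may be technical.

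Total counts per library ran from 23263472 to 62955757. Of the markers of the labelled cell type, Krt8, Krt18, Krt14, Cdh1, Epcam and Sfn were present, while Krt5 and Trp63, which define basal squamous cells, were under 1 CPM (a gene's read count scaled to a common library size) in every group's mean. The 6 leukocyte markers used, on 7 rows of the table, summed to at most 40.0 CPM in a library, most of it Cd68, with Cd3e, Lyz2 and Adgre1 at or near 0. A row that the authors added to the table for a dngfr sequence did not follow the EV label. In EV-proficient cells its mean was 8.99 ± 3.22 CPM with DMSO and 3.24 ± 0.682 with paclitaxel (SD, n = 3 here and below). In EV-deficient cells it was 2.14 ± 0.349 with DMSO and 10.9 ± 1.42 with paclitaxel. The second principal component of all genes, which held 16.4% of the variance, likewise placed EV-proficient DMSO beside EV-deficient paclitaxel libraries and the other pair of groups beside each other. The average of both paclitaxel effects has the same value whichever EV label is correct within a treatment, so it is given first. The paclitaxel effects given within each EV label, the differences between EV labels and the interaction all rest on the labels as deposited.

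Replication genes were lower under paclitaxel. In EV-proficient cells the summed level of the 50 genes was 6266, 6505 and 6155 CPM with DMSO and 3823, 3880 and 3898 with paclitaxel. In EV-deficient cells it was 6999, 6817 and 6816 CPM with DMSO and 2934, 2563 and 3191 with paclitaxel. Every paclitaxel library lay below every DMSO library, and the EV-deficient paclitaxel libraries were the lowest of all. In the average paclitaxel contrast 46 of 50 genes fell, 1 rose and 3 did not pass (edgeR quasi-likelihood test, Benjamini-Hochberg adjusted p under 0.05 over all genes tested), where 31.3% of all genes tested were called lower and 37.1% higher. The median log2 fold change of the 50 genes was -0.79, against 0.07 for all genes tested. A fall of at least 2-fold was called for 17 of them, and for 5.03% of all genes. In 40 of them all 6 paclitaxel libraries were below all 6 DMSO libraries, which held for 18.5% of all genes. In RNA from whole cultures, fewer cells in S phase and less RNA per cell cannot be told apart. The share of counts from mitochondrial genes moved along with the fall: it was 0.653% ± 0.0902 with DMSO and 0.878% ± 0.0309 with paclitaxel in EV-proficient cells, and 0.644% ± 0.0763 and 1.27% ± 0.189 in EV-deficient cells. Summed cell type markers moved with the drug too. The 8 squamous markers stood at 5022 to 5845 CPM in DMSO and 3074 to 3825 in paclitaxel libraries. Its members differed: Krt8 had lower means with paclitaxel under both EV labels, Epcam had higher ones, and Krt14 had means of 191 CPM under both treatments in EV-proficient cells but 681 CPM with DMSO and 80.0 with paclitaxel in EV-deficient cells. Sfn, at 162 and 121 CPM in EV-proficient and 328 and 53.5 in EV-deficient cells, was likewise highest in EV-deficient DMSO and lowest in EV-deficient paclitaxel libraries. The leukocyte markers stood at 6.67 to 9.73 CPM with DMSO and 22.6 to 40.0 with paclitaxel, a difference that lay mostly in Cd68, while Ptprc had means of 0.889 and 0.764 CPM in EV-deficient cells. The 4 fibroblast markers stood at 1.34 to 3.16 and 5.26 to 7.82 CPM, with Lum at or near 0 throughout, and the 3 endothelial markers at 1.69 to 2.49 and 2.55 to 4.26 CPM, although the means of Cdh5 and Kdr were lower with paclitaxel in EV-proficient cells. The part of these shifts in the fall of the replication genes was not tested.

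**Figure D1:**
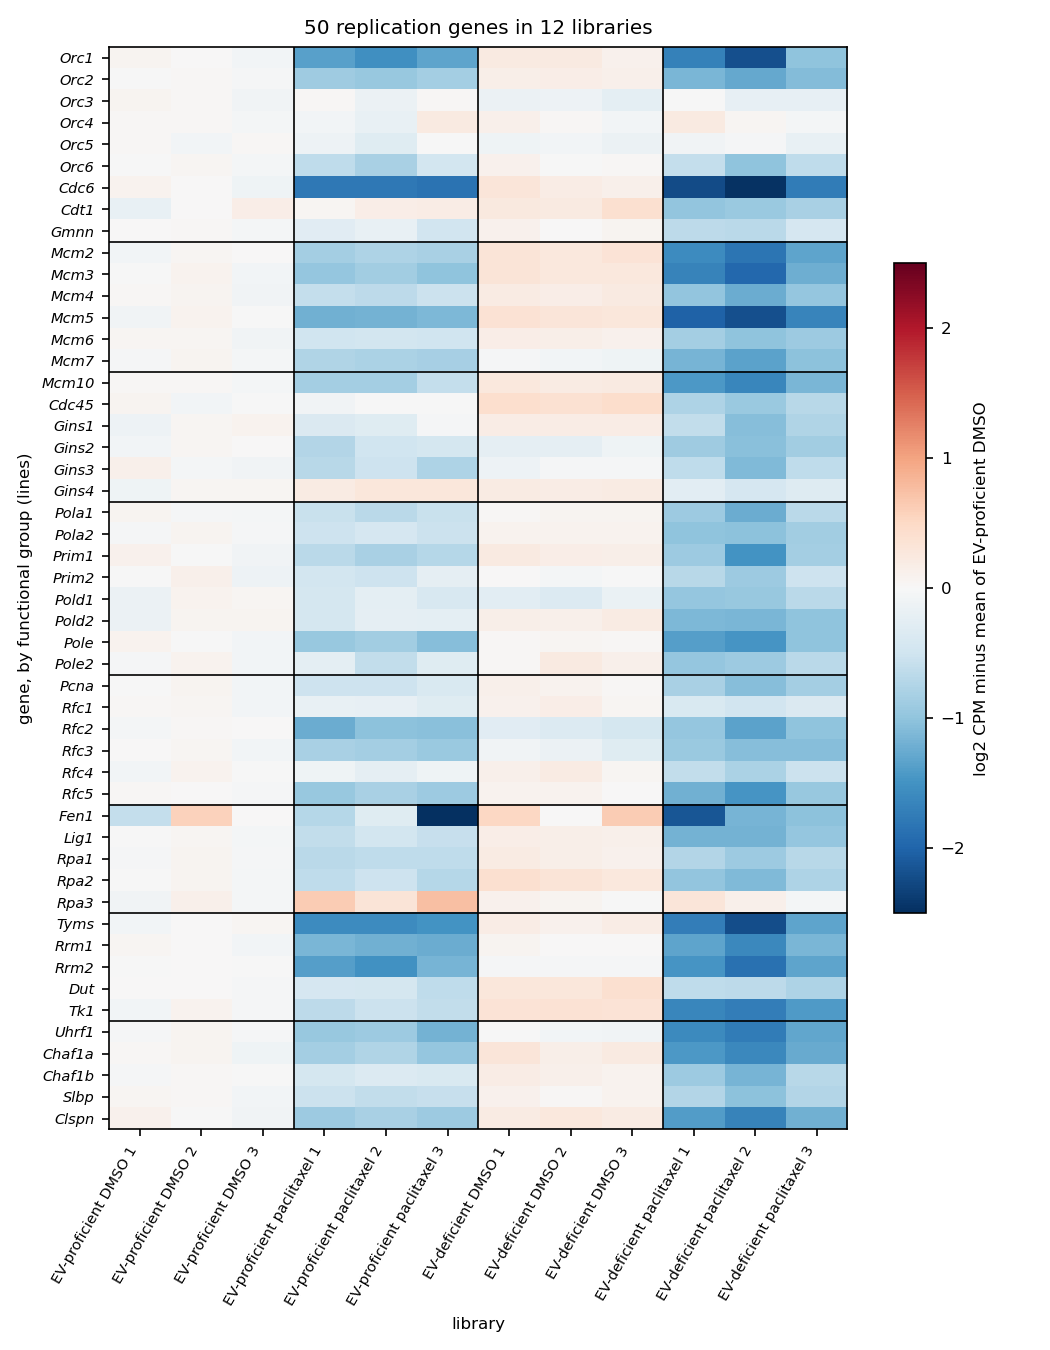
Heat map of the 50 genes (rows, in functional groups divided by lines) in the 12 libraries (columns); colour is log2 CPM minus the gene's mean over the 3 EV-proficient DMSO libraries, and values past the ends of the colour bar take its end colours. Most rows are blue in all 6 paclitaxel libraries; Orc3, Orc4, Orc5 and Rpa3 are near or above 0 in most of them, and Cdt1, Cdc45 and Gins4 are near or above 0 in the EV-proficient ones.

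Within EV-proficient cells 41 of the 50 genes fell and 2 rose under paclitaxel, where 27.1% and 31.1% of all genes tested did so. Their median log2 fold change was -0.60, against 0.05 for all genes, and 8 fell at least 2-fold (6.07% of all genes). Within EV-deficient cells 46 fell and 0 rose, where the shares of all genes were 30.5% and 32.4%; with upper-quartile scaling 46 fell and 3 rose, Orc4 and Rpa3 among them. The median there was -1.08, against 0.07 for all genes, and 29 fell at least 2-fold (7.13% of all genes). The 41 genes that fell in EV-proficient cells all fell in EV-deficient cells too; of the 4900 genes of the whole table that fell in EV-proficient cells, 68.4% did so. The estimated effect was lower in EV-deficient than in EV-proficient cells for 45 of the 50 genes, Rpa3 with its positive estimates among them, and for 52.3% of all genes, and the test of that difference is given after the description of each functional group.

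**Figure D2:**
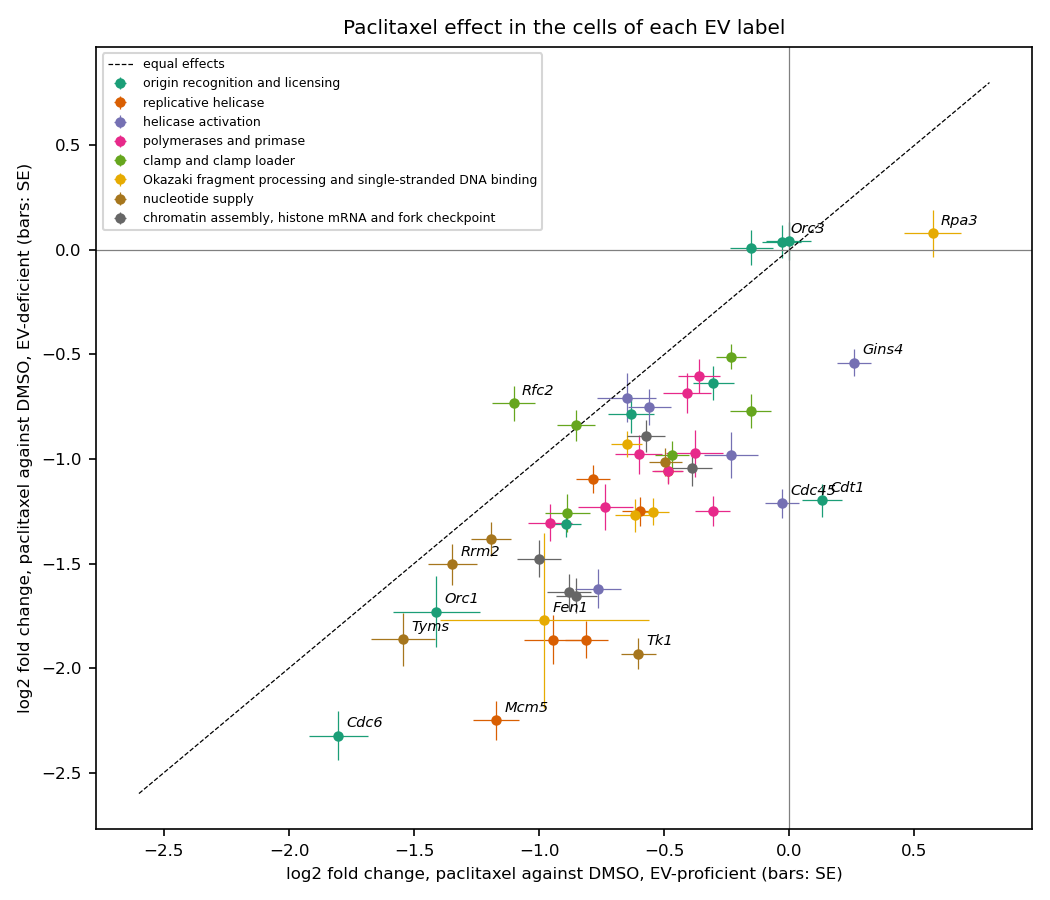
Scatter plot of the paclitaxel effect on each of the 50 genes in EV-proficient (x axis) and EV-deficient cells (y axis), as log2 fold changes against DMSO with standard errors as bars and colours for functional groups; the dashed line marks equal effects. Of the 50 points, 45 lie below the line; Rfc2, Rfc3, Orc3, Orc4 and Orc5 lie on or above it, and Cdt1, Gins4 and Rpa3 lie right of 0.

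Licensing of origins came apart into subunits that fell and subunits that did not. In the average paclitaxel contrast 6 of the 9 genes fell, with a median log2 fold change of -0.53 over the group. Cdc6, the ATPase that recruits the helicase ring to origins (ENSMUSG00000017499, chr11:98907801-98923940 of GRCm38), fell most of all 50 genes. Cdc6 stood at 99.0, 94.0 and 85.9 CPM with DMSO and 27.0, 26.9 and 26.0 with paclitaxel in EV-proficient cells, and at 115, 106 and 101 with DMSO and 19.8, 16.7 and 27.6 with paclitaxel in EV-deficient cells. The highest paclitaxel library, at 27.6 CPM, was far below the lowest DMSO library, at 85.9, and EV-deficient paclitaxel replicate 2 was the lowest of all. The average log2 fold change was -2.06 ± 0.08 (SE, as for every fold change below; edgeR adjusted p = 7.63e-15), a 4.18-fold fall, with -1.80 ± 0.12 in EV-proficient and -2.32 ± 0.12 in EV-deficient cells.

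Orc1, the origin recognition subunit whose protein is known to come and go with the cell cycle, fell from a group mean of 27.0 ± 1.24 CPM to 10.2 ± 0.801 in EV-proficient cells and from 30.8 ± 1.37 to 9.21 ± 3.82 in EV-deficient cells. Its average log2 fold change was -1.57 ± 0.12 (edgeR adjusted p = 2.02e-10). Orc2 (-1.10 ± 0.04) and Orc6 (-0.71 ± 0.07) fell as well. Orc3, Orc4 and Orc5, which with Orc2 make up the core of the complex, did not pass in any of the paclitaxel contrasts of the main model. Their average log2 fold changes were 0.0040 ± 0.06, 0.02 ± 0.06 and -0.07 ± 0.06. Orc4 stood at 57.2, 57.4 and 54.4 CPM with DMSO and 53.6, 49.9 and 66.1 with paclitaxel in EV-proficient cells, and at 61.5, 57.5 and 54.1 with DMSO and 65.5, 58.2 and 54.7 with paclitaxel in EV-deficient cells. Its 4 groups overlapped throughout, and the EV-proficient paclitaxel libraries held both its lowest and its highest value. Upper-quartile scaling, in place of the trimmed mean of M values (TMM), called Orc4 higher in EV-deficient cells, at 0.23 (edgeR adjusted p = 0.0305). With that scaling 3 of the 50 genes were called higher there: Orc4, Rpa3 and either Orc3 or Orc5. In the average contrast it called 2 of the 50 genes higher, against 1 in the main model. Per length of exon, Orc6 and Orc2 were the most abundant subunits: in EV-deficient DMSO libraries they stood at 54.4 and 26.7 RPKM (CPM per kilobase of exon), against 8.85 for Orc1, 7.74 for Orc4 and 3.83 for Orc5, with Orc3 between the last pair.

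**Figure D3:**
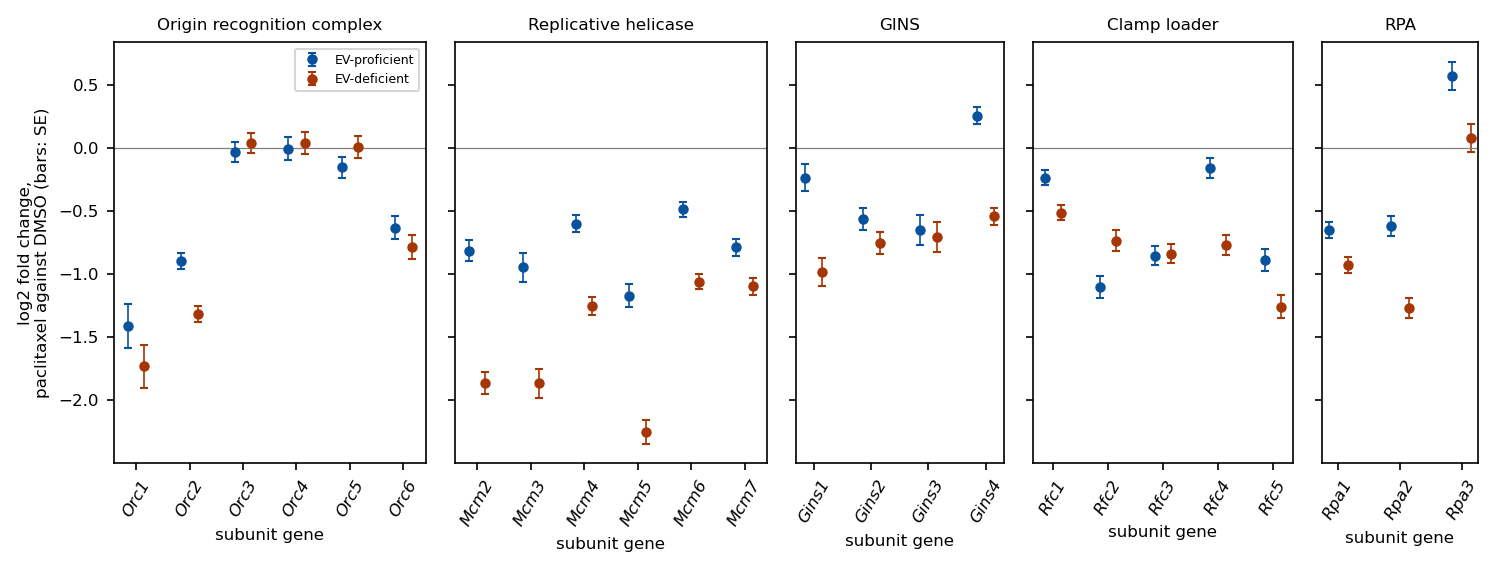
Paclitaxel effect (y axis, log2 fold change against DMSO, bars for standard errors) on each subunit gene of 5 replication complexes, in EV-proficient (blue) and EV-deficient (orange) cells. Orc3, Orc4 and Orc5 lie near 0 in both, all 6 subunits of the helicase lie below 0 in both, and Gins4 and Rpa3 lie above 0 in EV-proficient cells.

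Cdt1 and its inhibitor geminin did not move alike. Cdt1, which brings the helicase ring to the origin, stood at 91.0, 104 and 116 CPM with DMSO and 106, 115 and 118 with paclitaxel in EV-proficient cells, and at 122, 121 and 136 with DMSO and 52.3, 53.8 and 59.1 with paclitaxel in EV-deficient cells. The EV-deficient paclitaxel libraries were all below the others, while the EV-proficient paclitaxel libraries overlapped with their controls. Cdt1 did not pass in EV-proficient cells (0.13 ± 0.08, edgeR adjusted p = 0.174) and fell in EV-deficient cells (-1.20 ± 0.08, edgeR adjusted p = 3.44e-11). Without EV-proficient DMSO replicate 3 the value in EV-proficient cells was 0.22, with an edgeR adjusted p of 0.0324. Gmnn, which encodes geminin, stood at 50.7, 51.6 and 49.0 CPM with DMSO and 41.6, 44.3 and 36.2 with paclitaxel in EV-proficient cells, and at 54.4, 50.5 and 52.6 with DMSO and 31.9, 31.5 and 37.8 with paclitaxel in EV-deficient cells. Both paclitaxel groups were below both DMSO groups without overlap, and they overlapped each other, since EV-deficient paclitaxel replicate 3 lay above EV-proficient paclitaxel replicate 3. Gmnn fell in both (-0.30 ± 0.08 and -0.64 ± 0.08).

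Of the 8 licensing genes with a promoter window, Orc1, Orc3, Cdc6 and Cdt1 hold letters that E2F factors are known to bind, and Orc2, Orc4, Orc5 and Orc6 do not. The RefSeq table for GRCm38.p6 held promoter windows, from 250 bases before to 50 after the start, for 42 of the 50 genes. The letters TTTCGCGC, TTTGGCGC, TTTCCCGC and TTTGCCGC, searched on both strands with overlaps allowed, occurred in windows of 16 of those 42 genes (38.1%), against 2.6% of the 27025 genes in the table. The CCAAT box occurred in 27 (64.3%, against 41.1%) and the letters TTTGAA or TTCGAA, known as CHR, in 7 (16.7%, against 21.7%). These stretches, 5′ to 3′ on the strand of the gene with the E2F-type letters in capitals, are shown because Cdc6 and Orc1 fell and Orc3 did not; they span chr11:98907951-98908051 (plus strand), chr4:108579354-108579453 (plus strand) and chr4:34614943-34615042 (minus strand).
Cdc6: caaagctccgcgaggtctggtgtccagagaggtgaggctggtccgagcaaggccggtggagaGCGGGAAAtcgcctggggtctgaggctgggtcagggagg
Orc1: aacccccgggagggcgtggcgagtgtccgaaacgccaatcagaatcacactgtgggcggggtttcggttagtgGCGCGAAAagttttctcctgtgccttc
Orc3: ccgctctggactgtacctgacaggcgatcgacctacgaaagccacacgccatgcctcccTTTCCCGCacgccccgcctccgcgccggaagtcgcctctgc
A match is a description of these letters and not a binding site. The windows count from RefSeq starts, while the gene positions given here are from GENCODE. The GENCODE start of Cdc6, 98907801, lies before the Cdc6 stretch, and that of Orc1, 108579423, lies within the Orc1 stretch. The median average log2 fold change was -0.87 over the 16 genes with E2F-type letters, -0.78 over the 26 without them and -0.63 over the 8 with no window in the table. Rrm2 and Tyms, described below, have windows without them.

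All 6 genes of the replicative helicase fell in both EV labels. Their median log2 fold change was -1.14 in the average contrast, -0.80 in EV-proficient and -1.56 in EV-deficient cells. Mcm5 (ENSMUSG00000005410, chr8:75109569-75128439) had the largest fall and Mcm6 (chr1:128331590-128359664) the smallest. Mcm5 stood at 337, 378 and 353 CPM with DMSO and 154, 157 and 163 with paclitaxel in EV-proficient cells, and at 459, 437 and 434 with DMSO and 88.1, 78.0 and 113 with paclitaxel in EV-deficient cells. The 4 groups did not overlap: EV-deficient DMSO was highest, then EV-proficient DMSO, then EV-proficient paclitaxel, and EV-deficient paclitaxel was lowest. The average log2 fold change of Mcm5 was -1.71 ± 0.07 (edgeR adjusted p = 3.59e-15), from -1.17 ± 0.09 in EV-proficient and -2.25 ± 0.09 in EV-deficient cells.

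Mcm6 stood at 320.5, 319.9 and 294 CPM with DMSO and 222, 226 and 219.8 with paclitaxel in EV-proficient cells, and at 349, 342 and 337 with DMSO and 172, 155 and 167 with paclitaxel in EV-deficient cells. The same order of groups held without overlap, over a narrower span. On average it changed by -0.77 ± 0.04 on the log2 scale (edgeR adjusted p = 4.4e-13). Mcm2 stood at 220.0, 236 and 232 CPM with DMSO and 127, 134 and 131 with paclitaxel in EV-proficient cells, and at 285, 277 and 292 with DMSO and 76.9, 64.9 and 92.5 with paclitaxel in EV-deficient cells. Its groups were ordered and separated like those of Mcm5, with an average log2 fold change of -1.34 ± 0.06 (edgeR adjusted p = 3.92e-14). Mcm3, Mcm4 and Mcm7 changed by -1.40, -0.92 and -0.94 on the same scale. Although the ring holds 1 copy of each subunit, mRNA levels per length were unequal: in EV-deficient DMSO libraries Mcm3 stood at 117 ± 3.18 RPKM, Mcm5 at 111 ± 3.41, Mcm6 at 73.4 ± 1.36, Mcm4 at 72.2 ± 1.68, Mcm7 at 62.9 ± 1.94 and Mcm2 at 40.9 ± 1.03. In EV-deficient paclitaxel libraries the order had changed, with Mcm6 at 35.3 ± 1.88, Mcm3 at 32.2 ± 8.60, Mcm4 at 30.3 ± 3.05, Mcm7 at 29.4 ± 3.19, Mcm5 at 23.3 ± 4.57 and Mcm2 at 11.2 ± 1.99 RPKM. The first 4 of these differed by less than the SD of Mcm3. Orders in RPKM depend on annotated exon bases, 6956 for Mcm2 and 3589 to 4666 for the other subunits. In CPM Mcm2 was not the lowest in EV-deficient DMSO libraries, with a mean of 285 against 279 for Mcm7 and 259 for Mcm4. With paclitaxel Mcm2 was lowest in EV-deficient cells in CPM too, at 78.1.

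The promoter windows of both the subunit that fell most and the one that fell least hold E2F-type letters, in capitals below, on chr8:75109309-75109409 (plus strand) and chr1:128359735-128359855 (minus strand) of GRCm38.p6. In the Mcm5 stretch 2 matches on opposite strands overlap, and the Mcm6 stretch holds 3 matches, 2 of them overlapping.
Mcm5: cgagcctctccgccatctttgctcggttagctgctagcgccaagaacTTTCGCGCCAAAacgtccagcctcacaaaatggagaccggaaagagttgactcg
Mcm6: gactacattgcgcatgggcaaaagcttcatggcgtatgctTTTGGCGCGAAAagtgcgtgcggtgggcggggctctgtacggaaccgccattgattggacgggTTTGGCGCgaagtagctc

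Genes of helicase activation did not respond alike. In the average contrast all 6 fell, with a median log2 fold change of -0.64, but in EV-proficient cells 3 fell, 1 rose and 2 did not pass. Mcm10, which helps the helicase leave the origin, stood at 93.9, 92.9 and 88.2 CPM with DMSO and 50.7, 50.9 and 60.6 with paclitaxel in EV-proficient cells, and at 110.5, 106 and 107 with DMSO and 34.1, 29.6 and 41.4 with paclitaxel in EV-deficient cells. Its paclitaxel libraries all lay below its DMSO libraries, and the EV-deficient ones lay lowest. It changed by -0.77 ± 0.09 in EV-proficient and -1.62 ± 0.09 in EV-deficient cells. Cdc45, a subunit of the active helicase (chr16:18780447-18811987), stood at 56.8, 51.7 and 54.1 CPM with DMSO and 51.3, 54.1 and 54.0 with paclitaxel in EV-proficient cells, and at 72.2, 71.0 and 73.9 with DMSO and 31.9, 28.3 and 33.3 with paclitaxel in EV-deficient cells. In EV-proficient cells the drug and control libraries overlapped, whereas in EV-deficient cells the highest paclitaxel library, at 33.3 CPM, was below the lowest DMSO library, at 71.0. The log2 fold changes were -0.03 ± 0.07 (edgeR adjusted p = 0.742) and -1.21 ± 0.07 (edgeR adjusted p = 3.07e-12).

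GINS is a complex of 4 subunits, and its genes gave different answers. Gins4 (chr8:23226616-23237659) stood at 52.8, 59.3 and 59.4 CPM with DMSO and 65.9, 69.7 and 69.5 with paclitaxel in EV-proficient cells, and at 65.9, 64.8 and 66.1 with DMSO and 47.5, 42.5 and 45.4 with paclitaxel in EV-deficient cells. In EV-proficient cells all paclitaxel libraries were above all DMSO libraries, and in EV-deficient cells all were below. Gins4 was the single gene of the 50 called in opposite directions, with log2 fold changes of 0.26 ± 0.07 (edgeR adjusted p = 0.00222) and -0.54 ± 0.07 (edgeR adjusted p = 3.53e-07). Its average effect of -0.14 ± 0.05 passed here and did not with upper-quartile scaling, where it was -0.02 (edgeR adjusted p = 0.746). Gins1 fell in EV-deficient cells (-0.98 ± 0.11) and did not pass in EV-proficient cells (-0.23 ± 0.11). Gins2 and Gins3 fell in both, by -0.66 and -0.68 on average. Of the exons of Gins2, 67.3% overlap Gse1 on the opposite strand. Whether counting used strand is not given in the sources used here, so reads of such pairs may be mixed.

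All 8 genes of the polymerases and primase fell in both EV labels, with a median average log2 fold change of -0.77. Pole, the catalytic subunit of polymerase epsilon, which copies the leading strand, fell most. Pole stood at 150.3, 141 and 136 CPM with DMSO and 73.8, 77.9 and 68.0 with paclitaxel in EV-proficient cells, and at 146, 146 and 146 with DMSO and 54.9, 51.4 and 70.8 with paclitaxel in EV-deficient cells. Every paclitaxel library was below every DMSO library by a wide gap, and the DMSO groups overlapped each other. Its average log2 fold change was -1.13 ± 0.06 (edgeR adjusted p = 8.33e-13). Pold1, the catalytic subunit of polymerase delta, which works on the lagging strand, fell least. Pold1 stood at 79.3, 93.4 and 90.8 CPM with DMSO and 64.6, 73.8 and 66.7 with paclitaxel in EV-proficient cells, and at 73.2, 69.4 and 77.8 with DMSO and 44.6, 45.7 and 54.7 with paclitaxel in EV-deficient cells. The EV-proficient DMSO libraries were highest and the EV-deficient paclitaxel libraries lowest, while EV-proficient paclitaxel replicate 2 overlapped with EV-deficient DMSO. On the log2 scale it changed by -0.48 ± 0.06 on average (edgeR adjusted p = 2.47e-07).

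Pold2, the subunit that joins the catalytic chain of polymerase delta to the rest, changed by -0.31 ± 0.07 in EV-proficient and -1.25 ± 0.07 in EV-deficient cells. It had far higher mRNA levels per length than Pold1, at 101 against 15.1 RPKM in EV-deficient DMSO libraries. In CPM the gap was smaller, with means of 192 and 73.5 there. Pole2, the second subunit of polymerase epsilon, changed by -0.68 on average. Polymerase alpha and primase make the primers. Pola1 and Pola2 changed by -0.79 and -0.77, and Prim1 and Prim2 by -0.98 and -0.55. Prim1, the catalytic subunit of primase, had the larger estimate of that pair in both EV labels (-0.74 ± 0.11 against -0.41 ± 0.10, and -1.23 ± 0.11 against -0.68 ± 0.09); the difference between the genes was not tested.

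The clamp and its loader fell as a group, with all 6 genes lower in the average contrast and a median log2 fold change of -0.79. Pcna, the sliding clamp (ENSMUSG00000027342, chr2:132249162-132253314), stood at 272, 287 and 261 CPM with DMSO and 191, 192 and 211 with paclitaxel in EV-proficient cells, and at 298, 289.8 and 279 with DMSO and 157, 131 and 151 with paclitaxel in EV-deficient cells. Both paclitaxel groups were below both DMSO groups, the EV-deficient one lowest, and none of the drug libraries overlapped with a control. Its average log2 fold change was -0.73 ± 0.05 (edgeR adjusted p = 1.55e-11). A processed pseudogene, Pcna-ps2, shares 99.2% of its bases with Pcna over 781 aligned bases and had 29 to 70 counts in a library, against 5222 to 16708 for Pcna. In all, 8 of the 50 genes have a pseudogene at least 95% identical over at least 200 bases.

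Rfc1 to Rfc5 load the clamp. Rfc5 stood at 84.1, 82.5 and 80.4 CPM with DMSO and 42.9, 47.0 and 43.6 with paclitaxel in EV-proficient cells, and at 87.4, 87.4 and 83.1 with DMSO and 35.6, 29.6 and 42.5 with paclitaxel in EV-deficient cells. Its DMSO libraries lay close together, and the highest paclitaxel library, at 47.0 CPM, was far below them. Rfc1, the largest subunit, stood at 152, 153 and 142 CPM with DMSO and 130.3, 129 and 119.8 with paclitaxel in EV-proficient cells, and at 160.4, 167 and 153 with DMSO and 114, 107 and 116 with paclitaxel in EV-deficient cells. The shift was small, but paclitaxel and DMSO libraries did not overlap within either EV label. Their average log2 fold changes were -1.07 ± 0.06 and -0.37 ± 0.04. Rfc2 had the larger fall in EV-proficient cells by estimate (-1.10 ± 0.08 against -0.73 ± 0.08), Rfc3 fell alike by estimate (-0.85 ± 0.08 against -0.84 ± 0.08), and Rfc4 did not pass in EV-proficient cells (-0.15 ± 0.08) but fell in EV-deficient cells (-0.77 ± 0.08). Lat2, which shares 15.1% of Rfc2's exon bases on the opposite strand, had log2 fold changes of -1.59 in EV-proficient and 0.02 in EV-deficient cells, at 1.98 to 8.57 CPM; its part in the values of Rfc2 was not tested.

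Among the genes that bind single-stranded DNA and finish Okazaki fragments, 4 of 5 fell in the average contrast, 1 rose, and the median log2 fold change was -0.90. RPA is a complex of 3 subunits that coats single-stranded DNA. Rpa1 and Rpa2 fell in both EV labels (-0.65 and -0.62 in EV-proficient, -0.93 and -1.27 in EV-deficient cells). Rpa3, the smallest subunit (chr6:8255936-8259173), stood at 13.9, 16.2 and 14.3 CPM with DMSO and 22.9, 18.5 and 24.9 with paclitaxel in EV-proficient cells, and at 15.8, 15.5 and 14.7 with DMSO and 18.2, 16.1 and 14.3 with paclitaxel in EV-deficient cells. In EV-proficient cells all paclitaxel libraries were above all DMSO libraries, and in EV-deficient cells they overlapped. Rpa3 rose in EV-proficient cells (0.57 ± 0.11, edgeR adjusted p = 0.000174) and did not pass in EV-deficient cells (0.08 ± 0.11, edgeR adjusted p = 0.559; with upper-quartile scaling 0.26, edgeR adjusted p = 0.0433). In mRNA per length the order of RPA subunits in EV-proficient DMSO libraries was 41.5 RPKM for Rpa1, 19.9 for Rpa2 and 13.0 for Rpa3, and in EV-proficient paclitaxel libraries 26.5, 12.9 and 19.5. In CPM Rpa3 was below Rpa2 in both, with means of 14.8 against 59.4 with DMSO and 22.1 against 38.7 with paclitaxel.

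Lig1, the ligase that seals Okazaki fragments, changed by -0.55 ± 0.07 and -1.25 ± 0.07. Fen1, the nuclease that trims flaps from them, was counted at a very low level. Fen1 stood at 1.95, 4.40 and 2.98 CPM with DMSO and 1.80, 2.39 and 0.243 with paclitaxel in EV-proficient cells, and at 4.21, 2.96 and 4.58 with DMSO and 0.671, 1.32 and 1.44 with paclitaxel in EV-deficient cells. Its libraries scattered widely, and in EV-proficient cells the drug and control values overlapped. The log2 fold change was -1.77 ± 0.42 in EV-deficient cells (edgeR adjusted p = 0.000907) and -0.98 ± 0.42 in EV-proficient cells, where the edgeR adjusted p of 0.0497 just passed. DESeq2, limma-voom, upper-quartile scaling and several other settings did not call it there. The value was -0.64 without EV-proficient DMSO replicate 2, -0.61 without EV-proficient paclitaxel replicate 3, and -1.51 without EV-proficient paclitaxel replicate 2. Of the exons of Fen1, 78.8% overlap Gm10143 on the opposite strand, which had 6 to 66 counts a library, so the Fen1 row may not hold all reads of that gene.

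**Figure D4:**
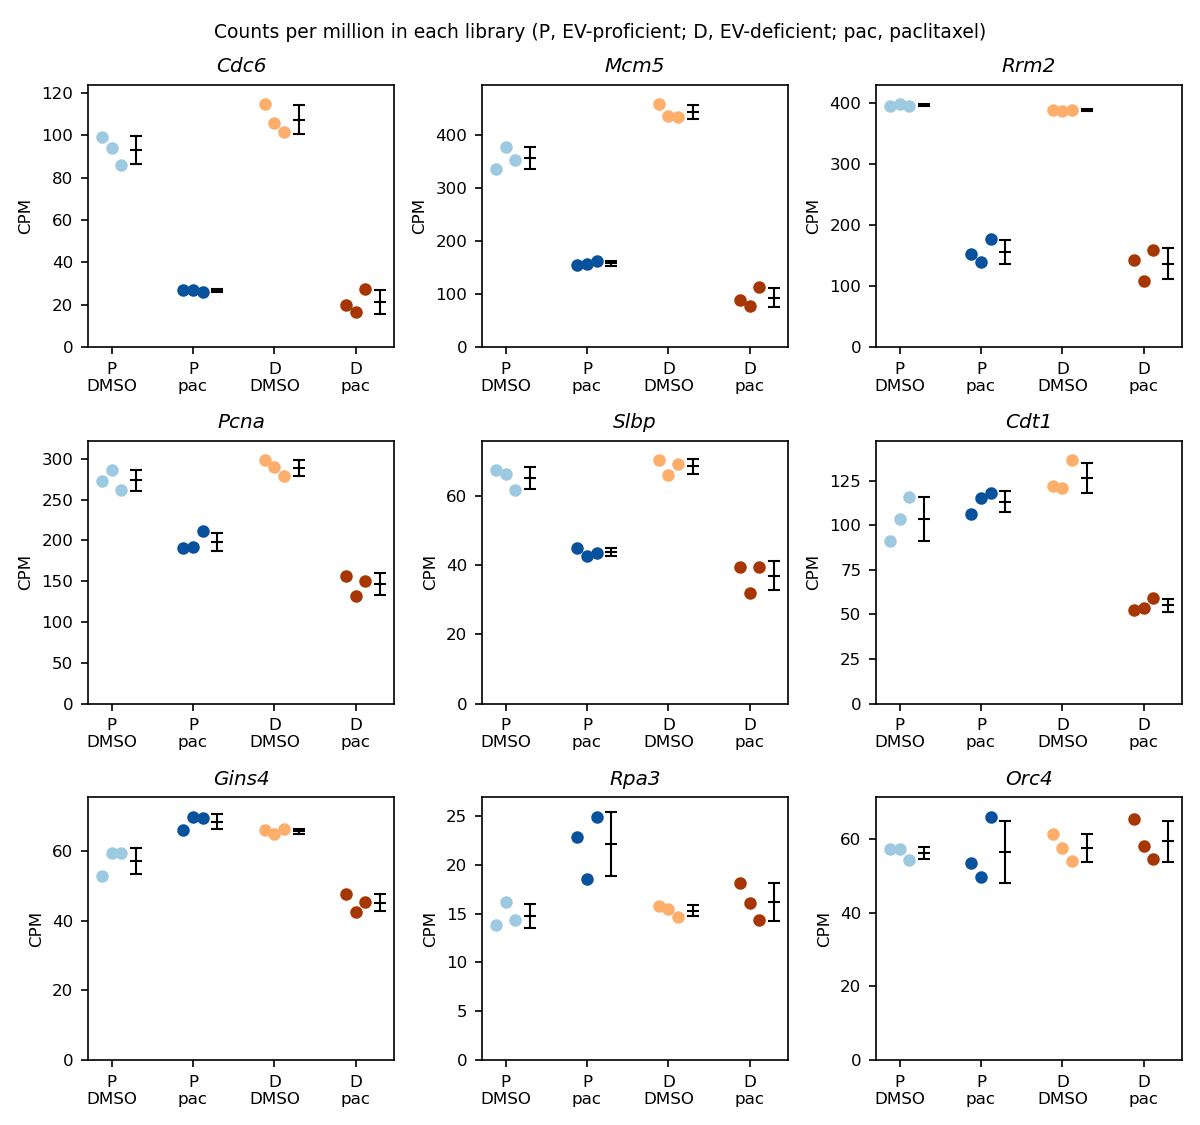
Level of 9 replication genes in each library (points, CPM on linear axes from 0), with the mean and SD of each group of 3 beside them (bars). Cdc6, Mcm5, Rrm2, Pcna and Slbp are lower in both paclitaxel groups, Cdt1 is lower in the EV-deficient one, Gins4 moves in opposite directions, Rpa3 is higher in the EV-proficient paclitaxel group, and Orc4 overlaps in all 4.

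Nucleotide supply had the lowest group median, at -1.29 in the average contrast, and all 5 genes fell in both EV labels. Rrm2, the small subunit of ribonucleotide reductase, whose supply is known to limit the enzyme outside S phase (ENSMUSG00000020649, chr12:24708241-24714146), stood at 395, 399 and 396 CPM with DMSO and 153, 139 and 177 with paclitaxel in EV-proficient cells, and at 389, 387 and 390.0 with DMSO and 143, 109 and 159 with paclitaxel in EV-deficient cells. The 6 DMSO libraries spanned only 387 to 399 CPM, and the 6 paclitaxel libraries 109 to 177 CPM, with the 2 EV labels overlapping under paclitaxel; under DMSO the EV-proficient libraries lay slightly above the EV-deficient ones. The average effect was -1.43 ± 0.07 on the log2 scale (edgeR adjusted p = 1.2e-13), with -1.35 and -1.50 in the EV labels. Rrm1, the large subunit, changed by -1.29 ± 0.06 on average. In EV-deficient DMSO libraries it stood at 41.6 RPKM against 140.3 for Rrm2. In CPM the order was the reverse, with means of 458 for Rrm1 and 389 for Rrm2. The RPKM values divide by all annotated exon bases, 11012 for Rrm1 and 2771 for Rrm2, so they do not settle which mRNA was more abundant.

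Tyms, thymidylate synthase, stood at 81.9, 86.0 and 88.8 CPM with DMSO and 28.9, 28.7 and 30.5 with paclitaxel in EV-proficient cells, and at 97.9, 91.7 and 97.7 with DMSO and 25.8, 18.5 and 34.3 with paclitaxel in EV-deficient cells. The highest paclitaxel library, at 34.3 CPM, was far below the lowest DMSO library, at 81.9, and EV-deficient paclitaxel replicate 2 was lowest. The log2 change averaged -1.70 ± 0.09 (edgeR adjusted p = 4.85e-13). Tk1, the thymidine kinase of the salvage path, stood at 131, 145 and 134 CPM with DMSO and 87.2, 93.4 and 88.7 with paclitaxel in EV-proficient cells, and at 173, 175 and 172 with DMSO and 44.0, 41.4 and 51.1 with paclitaxel in EV-deficient cells. Here the 4 groups did not overlap and the EV-deficient libraries held both extremes. The log2 fold change was -0.60 ± 0.07 in EV-proficient and -1.93 ± 0.07 in EV-deficient cells. Dut, which breaks down dUTP, stood at 109, 108 and 105 CPM with DMSO and 80.3, 78.8 and 69.3 with paclitaxel in EV-proficient cells, and at 131, 132 and 141 with DMSO and 69.0, 68.0 and 62.9 with paclitaxel in EV-deficient cells. It had the smallest fall of the 5, with -0.75 ± 0.05 on average, and EV-deficient DMSO libraries were above all others.

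Genes of chromatin assembly, histone mRNA and the fork checkpoint also fell in both EV labels, 5 of 5, with a median average log2 fold change of -1.24. Clspn, which relays the fork signal to the checkpoint kinase Chk1, stood at 96.2, 88.8 and 84.1 CPM with DMSO and 47.5, 50.9 and 47.6 with paclitaxel in EV-proficient cells, and at 103, 108 and 104 with DMSO and 34.0, 28.0 and 38.8 with paclitaxel in EV-deficient cells. Its paclitaxel libraries were all below its DMSO libraries, the EV-deficient ones lowest, and the average log2 fold change was -1.26 ± 0.06 (edgeR adjusted p = 1.24e-13). Chaf1a and Chaf1b encode subunits of chromatin assembly factor 1, which loads histones onto new DNA. Chaf1b stood at 73.4, 75.9 and 74.3 CPM with DMSO and 54.8, 58.4 and 57.4 with paclitaxel in EV-proficient cells, and at 84.6, 81.3 and 79.7 with DMSO and 39.7, 33.4 and 45.9 with paclitaxel in EV-deficient cells. The groups did not overlap and took the order seen for Mcm5. Chaf1b changed by -0.72 ± 0.06 and Chaf1a by -1.25 ± 0.06 on average; 52.5% of Chaf1a's exon bases overlap Ubxn6 on the opposite strand. Uhrf1, which keeps DNA methylation in step with replication, changed by -1.24 ± 0.06.

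Slbp, the protein that binds the stem-loop of replication-dependent histone mRNA, stood at 67.7, 66.4 and 61.8 CPM with DMSO and 45.2, 42.8 and 43.7 with paclitaxel in EV-proficient cells, and at 70.4, 66.3 and 69.3 with DMSO and 39.4, 32.1 and 39.5 with paclitaxel in EV-deficient cells. Its drug libraries, at most 45.2 CPM, did not reach its controls, at least 61.8. Slbp changed by -0.73 ± 0.05 on average (edgeR adjusted p = 8.27e-11).

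Without drug, 11 of the 50 genes passed between the EV labels. EV-deficient DMSO libraries were higher than EV-proficient DMSO libraries for 9 of the 50 genes and lower for 2, where 12.4% and 10.6% of all genes were called, and the median log2 fold change was 0.13, against 0.04 for all genes. By estimate 39 of the 50 genes were higher, as were 54.9% of all genes. The 9 were Cdt1 (0.29), Mcm2 (0.31), Mcm4 (0.19), Mcm5 (0.32), Cdc45 (0.42), Gins4 (0.20), Rpa2 (0.32), Dut (0.32) and Tk1 (0.35), and the 2 were Pold1 (-0.26) and Rfc2 (-0.36). Cdc45 had the largest difference, with an SE of 0.07 and an edgeR adjusted p of 0.000101. Of these 11 calls, 6 held in every alternative and those of Cdt1, Mcm4, Mcm5, Gins4 and Pold1 did not. The count was 7 without EV-deficient DMSO replicate 1, 18 without the filter on low counts (2 lower and 16 higher) and 20 when the model held only the compared groups (5 lower and 15 higher). Calls among all genes moved too, from 4164 in the main model to 2980 without that library. They were 4455 without the filter (1600 lower and 2855 higher) and 5631 with the compared groups alone (2860 lower and 2771 higher).

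Under paclitaxel the EV-deficient libraries were lower for 37 of the 50 genes and higher for 0, where 21.8% and 16.0% of all genes were called lower and higher. The median log2 fold change was -0.38, against -0.0047 for all genes, and 1 gene, Cdt1, was at least 2-fold lower, as were 2.54% of all genes (-1.04 ± 0.08, edgeR adjusted p = 3.08e-09). The polymerases and primase (8 of 8), the helicase (6 of 6) and the chromatin group (5 of 5) were lower, while 2 of 5 nucleotide supply genes were, namely Dut (-0.20) and Tk1 (-0.98). Rrm2 and Tyms, which fell steeply under the drug, did not pass between the EV labels there (-0.19 ± 0.10 and -0.16 ± 0.13). Both passed without EV-deficient paclitaxel replicate 3, at -0.30 (edgeR adjusted p = 0.0158) and -0.40 (edgeR adjusted p = 0.00412), and Rrm2 also passed without the filter on low counts (-0.21, edgeR adjusted p = 0.0134). Of the 37 calls, 27 held in every alternative and those of Cdc6, Gmnn, Pola1, Prim1, Prim2, Pole, Rfc1, Rfc5, Dut and Slbp did not; without EV-deficient paclitaxel replicate 2, the library with the lowest sum of the 50 genes, 28 genes were called.

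For 40 of the 50 genes the estimated difference between EV labels had opposite signs under DMSO and paclitaxel, and for 38 of these it was positive under DMSO and negative under paclitaxel. Opposite signs were common in the whole table too, at 67.1% of all genes, and 36.2% of all genes were positive under DMSO and negative under paclitaxel. The 9 genes called higher in EV-deficient cells under DMSO were all called lower under paclitaxel, as were 69.3% of the 2243 genes of the whole table called higher under DMSO, and Pold1 was lower under both. The dngfr row also changed direction between treatments, lower in EV-deficient libraries under DMSO and higher under paclitaxel, and its part in these values was not tested.

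**Figure D5:**
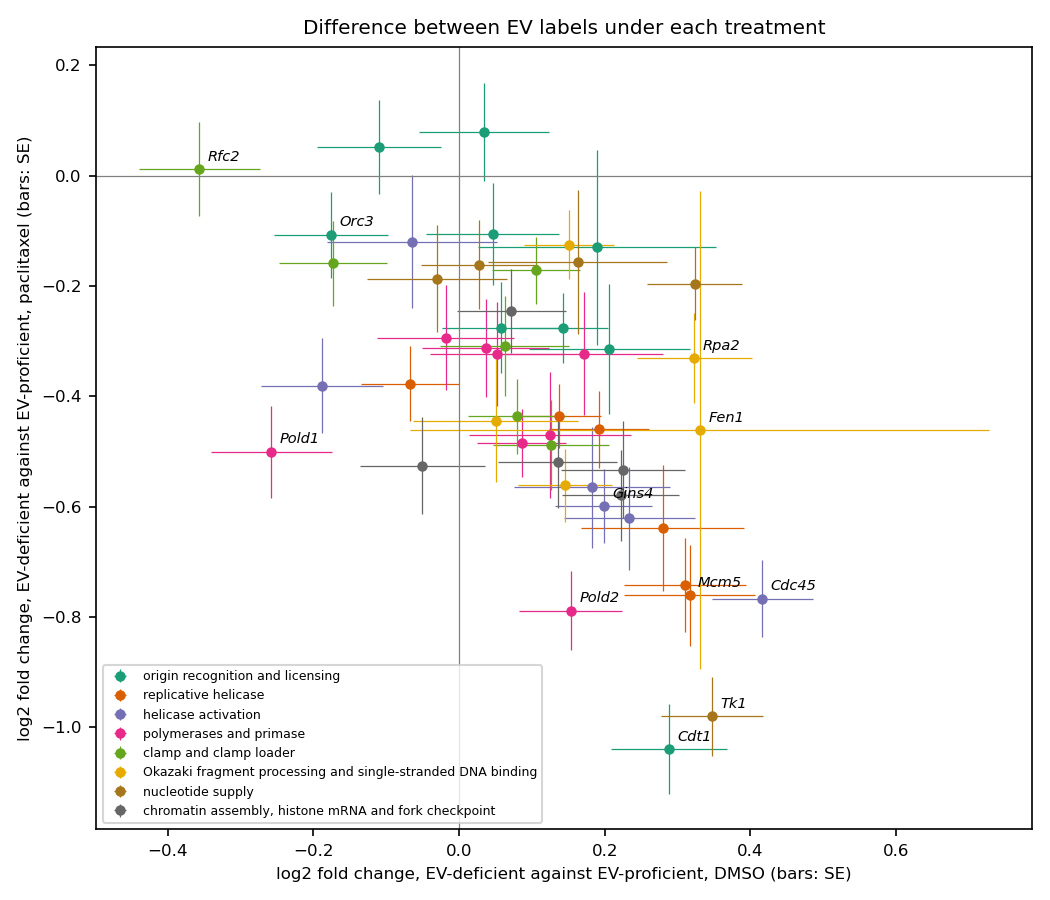
Scatter plot of the difference between EV labels (EV-deficient against EV-proficient, log2 fold change with standard errors as bars) for each of the 50 genes under DMSO (x axis) and paclitaxel (y axis), coloured by functional group. Of the 50 points, 38 lie right of 0 and below 0, with Cdt1, Tk1, Cdc45 and Pold2 lowest.

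The interaction, which tests whether the drug effect differed between the EV labels, passed for 36 of the 50 genes: the difference, EV-deficient minus EV-proficient, was negative for 35 and positive for 1, where 23.8% of all genes were called lower and 16.9% higher. The median difference was -0.49 on the log2 scale, against -0.04 for all genes. A negative difference of at least 2-fold was called for 5 of the 50 genes, Cdt1, Mcm2, Mcm5, Cdc45 and Tk1, and for 6.11% of all genes. Cdt1 (-1.33 ± 0.11, edgeR adjusted p = 5.66e-09), Tk1 (-1.33 ± 0.10, edgeR adjusted p = 7.81e-10) and Cdc45 (-1.18 ± 0.10, edgeR adjusted p = 3.69e-09) had the largest differences. Rfc2 was the gene called with the opposite sign, a call that did not hold in every alternative (0.37 ± 0.12, edgeR adjusted p = 0.0162).

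By function, the interaction passed for all 6 helicase genes (median -0.78) and all 5 chromatin genes (median -0.65), for 6 of 8 polymerase and primase genes (median -0.43), 4 of 6 activation genes (median -0.77), 4 of 5 Okazaki and single-strand binding genes (median -0.65), 5 of 6 clamp genes with Rfc2 among them (median -0.32), 4 of 9 licensing genes (median -0.32) and 2 of 5 nucleotide supply genes (median -0.32). Both chains of ribonucleotide reductase did not pass (-0.19 ± 0.11 for Rrm1 and -0.16 ± 0.14 for Rrm2), nor did Tyms (-0.32 ± 0.18), which passed without EV-deficient paclitaxel replicate 3 (-0.52, edgeR adjusted p = 0.00311) and without the filter on low counts (-0.39, edgeR adjusted p = 0.00296). Of the 36 calls, 24 held in every alternative and those of Cdc6, Gmnn, Mcm7, Pola1, Prim1, Pole, Rfc1, Rfc2, Rfc5, Rpa1, Rpa3 and Slbp did not. The median was -0.33 without EV-deficient paclitaxel replicate 2.

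A further 62 genes of replication that are not among the 50 were read from the same model. All 62 were tested, and in the average paclitaxel contrast 50 fell, 9 rose and 3 did not pass, with a median log2 fold change of -0.65; of all genes 31.3% fell and 37.1% rose. In EV-proficient cells 45 fell and 9 rose (27.1% and 31.1% of all genes), and in EV-deficient cells 50 fell and 6 rose (30.5% and 32.4%). EV-deficient libraries were higher for 23 and lower for 5 under DMSO (12.4% and 10.6%), and lower for 43 and higher for 5 under paclitaxel (21.8% and 16.0%). The interaction passed with a negative sign for 46 and a positive sign for 5 (23.8% and 16.9%). Of 16 genes of origin firing and fork protection 15 fell, led by the helicase Recql4 (-1.33), Wdhd1 (-1.06) and Timeless (-1.03). Dbf4, the activator of the Cdc7 kinase, fell in EV-proficient (-0.47 ± 0.06) and rose in EV-deficient cells (0.18 ± 0.06). Of 24 other genes of nucleotide synthesis 18 fell, led by Nme1 (-1.75), the pyrimidine enzyme Cad (-1.42) and the folate enzyme Mthfd1 (-1.39), and 6 rose, among them the mitochondrial salvage kinases Dguok (0.76) and Tk2 (0.52) and the CTP synthase Ctps2 (0.82).

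Of 14 other polymerase, clamp and Okazaki genes 11 fell, led by the nucleases Dna2 (-1.50) and Exo1 (-1.12) and by Dscc1 (-1.11), while the small polymerase delta subunit Pold4 (0.43) and Rnaseh2a (0.18) rose. In EV-proficient cells Pold4 rose (1.19 ± 0.18, edgeR adjusted p = 7.23e-06), and in EV-deficient cells it did not pass (-0.32 ± 0.18). Rnaseh2a rose in EV-proficient (0.61 ± 0.07) and fell in EV-deficient cells (-0.24 ± 0.07), the pattern of Gins4. Of 8 other genes of replication-coupled chromatin 6 fell, led by Hells (-1.34), Asf1b (-1.03) and the maintenance DNA methyltransferase Dnmt1 (-1.01), while Zranb3 rose (0.36) and Asf1a did not pass (-0.07).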

How the data were processed

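Per the labels' protocols, stranded libraries were made from polyadenylated RNA of 12 MOC2 samples. Whole read counts per gene, not normalized, were deposited by the authors. STAR 2.5.0a and GRCm38 are named in the submitters' processing notes. The counting program, its annotation and its strand setting are not given in the sources used here. Columns were matched to samples by description, and the table held 0 columns of other samples. The 2 rows the authors added (gfp and dngfr, at most 0.00142% of a library's counts) were left out of library sizes and tests.

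In R 4.3.3, edgeR 4.0.16 kept 18108 of 35104 genes with a count (filterByExpr, minimum count 10) and scaled libraries by TMM (factors 0.891 to 1.15). It fitted 1 mean per group over all 12 libraries with no covariate (common dispersion 0.00956), and adjusted p-values by the Benjamini-Hochberg method over all genes, threshold 0.05, in 6 comparisons. Standard errors are fold changes divided by the square root of the quasi-likelihood F. RPKM uses the exon union of GENCODE M21 on GRCm38, which can be longer than a gene's transcripts, so the order of genes in RPKM depends on it. Similar transcripts came from blastn 2.17.0. Promoter windows are from RefSeq. Results were recomputed with DESeq2 1.42.0 and limma-voom (limma 3.58.1), with scaling by median of ratios or upper quartile, with no low-count filter or one of at least 1 CPM in 3 libraries, with the replicate number as a block, on the compared groups alone, and without each library. Simulated counts (17419 genes) had 47 to 50 genes changed at each fold. On them edgeR recovered 52.0% of 1.5-fold, 63.8% of 2-fold, 81.6% of 3-fold and 91.5% of 4-fold changes. In the comparison within EV-proficient cells 10538 of 18108 genes were called. With few changed genes the adjusted p threshold is harder to pass, and the changed genes were drawn from all expression levels. These shares therefore do not give the power for the 50 genes. Precision rests on the spread between libraries as well as on 23263472 to 62955757 counts a library. That spread exceeded counting error. The chi-square per degree of freedom between replicate pairs was 16.1 to 31.1 in EV-deficient paclitaxel libraries and 4.20 to 14.5 in the other groups. Without molecular identifiers, reads of 1 molecule cannot be told from reads of several, so counting error is a lower limit.

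The 50 genes, the functional groups, the 62 further genes and the markers were chosen with earlier results of these data known. Values in every library are given for Mcm2, Pcna, Rrm2, Cdc6, Gmnn and Slbp, for the lowest and highest gene of each functional group in the average paclitaxel contrast, for the 3 largest interactions and for genes called in opposite directions by the paclitaxel contrasts; of the 62 further genes, at most the 3 highest and 3 lowest per list are named. Orc1, Orc2, Orc3, Rfc2 and other genes outside that rule are given by fold change or group mean.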

Additional observations from a re-analysis of the deposited data

Results flagged for a closer look

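The paclitaxel effect differed between the EV labels by the interaction test (edgeR quasi-likelihood, adjusted p under 0.05) for 36 of the 50 genes, where 23.8% of all genes were called lower and 16.9% higher. The 19 of them that are given library by library follow; Cdt1, Tk1 and Cdc45 are among these because their interactions were the largest. Among licensing and helicase genes the differences, EV-deficient minus EV-proficient on the log2 scale, were -0.52 for Cdc6, -1.33 for Cdt1, -0.33 for Gmnn, -1.05 for Mcm2, -1.08 for Mcm5 and -0.57 for Mcm6. They were -0.86 for Mcm10, -1.18 for Cdc45 and -0.80 for Gins4 in helicase activation. Fork genes gave -0.35 for Pole, -0.51 for Pcna, -0.28 for Rfc1, -0.37 for Rfc5 and -0.49 for Rpa3. The remaining ones were -0.52 for Dut, -1.33 for Tk1, -0.65 for Chaf1b, -0.32 for Slbp and -0.76 for Clspn. All 19 are negative, and the calls of Cdc6, Gmnn, Pole, Rfc1, Rfc5, Rpa3 and Slbp did not hold in every alternative. Without EV-deficient paclitaxel replicate 2 the values were -0.33 for Cdc6, -0.24 for Gmnn, -0.21 for Pole, -0.19 for Rfc1, -0.20 for Rfc5 and -0.18 for Slbp, and none of these passed. EV label and derivative line cannot be told apart here. The dngfr row crossed the EV label, high in EV-proficient DMSO and EV-deficient paclitaxel libraries. Its arrangement and the interaction therefore cannot be told apart. Mitochondrial share was highest in the EV-deficient paclitaxel libraries (1.45%, 1.29% and 1.07%).

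The dngfr row, which no comparison uses, averaged 10.9 CPM in EV-deficient paclitaxel libraries, above the 2.14 CPM of their DMSO controls. In single libraries it had 574, 445 and 758 counts there, 106, 96 and 116 in EV-deficient DMSO, 235, 379 and 416 in EV-proficient DMSO and 125, 199 and 93 in EV-proficient paclitaxel libraries. The gfp row had 0 counts in every library.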

How the results depend on the processing

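No median over the 50 genes changed sign under any alternative, and none of the 50 genes was called in both directions of a comparison. Upper-quartile scaling gave weaker medians over the 50 genes: -0.89 for paclitaxel in EV-deficient cells, -0.28 between EV labels under paclitaxel, -0.37 for the interaction and -0.67 for the average effect. It turned the median of all genes from -0.0047 to 0.09 between EV labels under paclitaxel and from -0.04 to 0.08 in the interaction. It raised that median by 0.18, 0.12 and 0.12 in EV-deficient cells, the interaction and the average, and the share of calls that were higher from 51.5% to 63.4% in EV-deficient cells, from 42.4% to 58.2% between EV labels under paclitaxel and from 41.4% to 53.9% in the interaction. Dropping the low-count filter raised the average contrast's median of all genes by 0.11. It also raised that share from 53.9% to 64.1% between EV labels under DMSO (47.1% with upper-quartile and 48.2% with median-of-ratios scaling), where the number of the 50 genes called was 18, and 20 with the compared groups alone, against 11. Among all genes the calls were 4455 and 5631 in the same order, against 4164. Leaving out each library in turn gave 42 to 46 genes called for paclitaxel in EV-proficient cells, 46 in EV-deficient cells, 7 to 15 between EV labels under DMSO, 28 to 41 under paclitaxel, 26 to 40 for the interaction and 47 on average. The medians ran from -0.65 to -0.57, -1.17 to -1.03, 0.09 to 0.16, -0.46 to -0.30, -0.53 to -0.33 and -0.85 to -0.79 in the same order, and the genes called among all tested from 9637 to 10894, 10493 to 11767, 2980 to 4455, 5738 to 6932, 6560 to 7367 and 12018 to 12553. Of the calls on the 50 genes, 42 of 43, 46 of 46, 6 of 11, 27 of 37, 24 of 36 and 46 of 47 held in every alternative.

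Replicate numbers did not pair the libraries: the deviations of same-numbered libraries correlated at -0.08 to 0.10, and 5 of 12 libraries were closest to their own number. With the replicate number as a block, 42, 46, 12, 37, 36 and 47 of the 50 genes were called, in the same order. The planned interaction and average could not be run on the compared groups alone, since they use all 4. Fen1 had 6 to 236 counts a library, which limits the precision of its values; other reasons for its low counts were not tested.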

Other observations

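Some neighbours of these genes share exon bases with them on the opposite strand; some moved in the same direction and some did not. Nif3l1, which overlaps 29.8% of the exon bases of Orc2, had an average log2 fold change of -0.85 (edgeR adjusted p = 2.87e-13), beside -1.10 for Orc2. Ufd1, beside Cdc45, had -0.57 and Wsb2, beside Rfc5, -0.66. Eif4a2, which overlaps 12.7% of the exon bases of Rfc4, had 0.43 (edgeR adjusted p = 6.68e-06), beside -0.46 for Rfc4. Mbd5, beside Orc4, had 0.66 and Vps35, beside Orc6, 0.13. Vps35 stood at 374 to 574 CPM, above every value of Orc6.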
